A study of Mus musculus with 25 samples.

Results

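The lungs of mice that had eaten a reduced diet for 48 h were compared with the lungs of fed mice taken at 0 h. The labelled hours put both at the same time of day. The 48 h group held 2 arrays (1a and 1b) of lung from C57BL/6 mice, an inbred laboratory strain, on calorie restriction (CR) that took away 2/3 of the food. The fed group held 4 arrays (1a, 1b, 2a and 2b) of lung from mice of the same strain. Their titles mark them as controls at 0 h and the labels speak of constant feeding, yet the same text repeats the 2/3 reduction. They are read here as unrestricted, with that doubt. Neither group carried an engineered allele or a drug by the labels, which give no age or sex. These 6 arrays, chosen by group and time in the labels, are 6 of the 25 arrays of the series, which also covers CR at 24, 72 and 96 h and early CR and fed times. The stated interest of the project was that alveoli, the air sacs where gas is exchanged, are lost on such a diet. Whole-lung RNA was read out on Affymetrix MG-U74Av2 arrays, on which each set of short probes reports a transcript as a light signal. Some sets carry several gene symbols and so may report more than 1 transcript. Of 12422 probe sets that are not controls, the 7440 that reached their array's own median signal on at least 2 arrays of the series were tested; 6725 of them had 1 gene symbol, for 5706 genes.

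A fall in food intake is met by hormones. Adrenal glucocorticoids rise and insulin falls, and cells turn from burning glucose and storing fat to releasing and burning fatty acids. Glucocorticoids act through a receptor that enters the nucleus, binds DNA and switches on a set of genes shared by many tissues, while it dampens inflammatory and immune gene expression. Loss of insulin signalling frees the FOXO transcription factors, which act on cell cycle arrest and protein breakdown. The lung is also rich in endothelial cells, macrophages and lymphocytes, so whole-lung RNA reports on all of these.

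The 6 arrays carried lung RNA. Sftpc, which type II cells use to make surfactant protein C, ran from 42569 to 97698 signal units over the 6 arrays, and Sftpb, another surfactant gene, from 12361 to 33353. Scgb1a1, the secretory protein of club cells, ran from 41964 to 75170.0, and Ager, a marker of alveolar type I cells, from 23602 to 31481. The probe set for Sftpd did not pass the filter, and no probe set was matched to Aqp5 or Cldn18 here. Neither Sftpc (log2 change 0.28, adjusted p = 0.530), Sftpb (0.74, 0.0647), Scgb1a1 (0.11, 0.777) nor Ager (-0.04, 0.890) passed the test between the groups (limma, as throughout). Sftpc gave 97698 and 88378.5 on fed arrays 1a and 1b, 42569 and 51195 on fed 2a and 2b, and 89647 and 71740 under CR. For Scgb1a1 these were 75170 and 66475, 41964 and 47583.5, and 63153.5 and 58011. The small changes of these genes thus average fed arrays that differed. Sftpb was lower on fed 1a and 1b (12361 and 19699) than on fed 2a and 2b (22074.5 and 26131). Whether arrays a and b came from different animals or from 1 RNA sample is not stated, so p-values may measure only technical spread.

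The fed controls were of 2 kinds. Across probe sets the arrays numbered 1 correlated with those numbered 2 at r = 0.854 to 0.871, against 0.956 and 0.959 within a number, and 2969 probe sets (39.9%) differed between the numbers. The 48 h arrays correlated at 0.932 to 0.940 with number 2, at 0.840 to 0.856 with number 1 and at 0.950 with each other. In signal range they were nearer number 1. The highest deposited signal was 87355 and 75232 on the 48 h arrays, 93445 and 86942 on number 1, and 53258 and 54315 on number 2. Neither number is thus a like control in both respects, and what the range adds to the calls was not tested. Each change is therefore given over all 4 fed arrays, and for many genes also against each number. Signs of RNA quality differed as well. For actin, the signal of the 3' probe set over that of the 5' one, a ratio that grows as RNA degrades, was 3.81 and 2.69 on the 48 h arrays against 1.87 to 2.31 on the fed arrays, and for Gapdh it was 1.95 and 2.15 against 1.76 to 2.02. The actin ratio was also added to the fit as a covariate. With that term 47 probe sets rose and 24 fell, and all 71 had been called without it. The ratio was high on the 48 h arrays, so the term overlaps the group and lost calls do not measure the part of RNA quality. The log2 change without and with the term was 2.97 and 3.02 for Fkbp5 and -2.12 and -1.72 for Pheta1.

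After 48 h of CR, 188 of 7440 probe sets (2.53%) were higher than in fed lung and 217 (2.92%) were lower at an adjusted p under 0.05. The median log2 change over all probe sets was -0.02. All 188 that rose, and 214 of those that fell (2.88%), had both CR arrays beyond all 4 fed arrays. Of all 5706 genes, 636 (11.1%) lay above and 785 (13.8%) below in that way, called or not. Against number 1 alone 1513 probe sets (20.3%) rose and 1629 (21.9%) fell, and against number 2 alone 147 (1.98%) rose and 113 (1.52%) fell. The probe sets called against all 4 arrays and against each number alone were 98 that rose (1.32%) and 70 that fell (0.941%). In a fit of only the 6 arrays no probe set passed, with 752 at an unadjusted p under 0.05. With the a and b arrays of a number treated as correlated, 18 rose and 1 fell. These counts also turned on single arrays: 41 rose and 52 fell without CR 1a, 63 and 47 without CR 1b, 116 and 88 without fed 1a, 109 and 82 without fed 1b, 506 and 733 without fed 2a, and 485 and 525 without fed 2b. Of 90 genes picked by the rules for naming and called against all 4 fed arrays, 30 held without CR 1a, 36 without CR 1b, 61 without fed 1a and 61 without fed 1b, and all 90 without fed 2a or fed 2b. The 25 that held whichever 1 of the 6 arrays was left out were Acot1, Angptl4, Bcl2l1, Bik, Blnk, Cdkn1a, Col3a1, Ddit4, Errfi1, Fkbp5, Kctd9, Klf2, Klf4, Lox, Lpl, Lyve1, Map3k6, Myl7, Pdk4, Per1, Pheta1, Pnpla2, Ptpn18, Ten1 and Zbtb16. This check is given for those 90 genes and not for the others named.

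**Figure D1:**
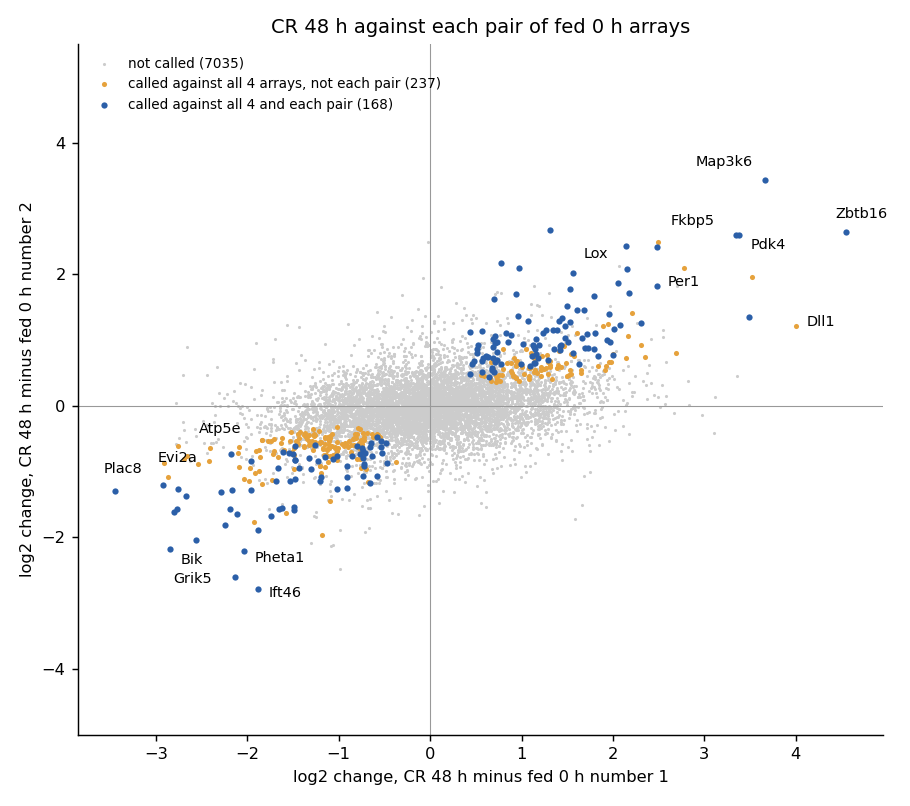
Each point is 1 of the 7440 probe sets, placed by its log2 change at CR 48 h against fed 0 h number 1 (horizontal) and number 2 (vertical); colours give the calls at an adjusted p under 0.05. The cloud is wider along the horizontal axis than along the vertical one, and the 168 blue points called against all 4 arrays and each number include Zbtb16, Map3k6, Pdk4 and Fkbp5 at upper right and Plac8, Bik and Pheta1 at lower left.

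The 4 largest rises among the named genes were in genes that glucocorticoids induce. Zbtb16, a zinc-finger transcription factor, gave 250.4, 443, 1107 and 1422 signal units on fed arrays 1a, 1b, 2a and 2b and 7975 and 7673 on CR arrays 1a and 1b. Both CR arrays stood far above every fed array, and fed number 1 was the lowest. The rise was 12.1-fold (95% CI 6.29 to 23.3, adjusted p = 9.62e-05). Map3k6, a stress-activated protein kinase, gave 106, 263, 112 and 342 on the fed arrays in the same order and 2051 and 2165 after 48 h. The groups did not overlap, and the rise was 11.7-fold (95% CI 6.91 to 19.7, adjusted p = 9.29e-06). Fkbp5, a co-chaperone that lowers the hormone affinity of the glucocorticoid receptor and is itself induced by it, gave 279, 221, 358 and 487 in fed lung and 2802 and 2254 under CR. Every fed array lay well below both CR arrays, and the rise was 7.81-fold (log2 2.97, SE 0.24, adjusted p = 7.14e-07). All of these genes were called against each fed number, with log2 changes of 4.55 and 2.64 for Zbtb16, 3.66 and 3.43 for Map3k6, and 3.34 and 2.59 for Fkbp5 against numbers 1 and 2. Their fed means were lowest at 0 h. For Zbtb16 the mean was 806 at 0 h, 1979 to 2523 at fed 2, 4 and 12 h and 7824 at CR 48 h. For Map3k6 these were 206, 328 to 974 and 2108, and for Fkbp5 336, 853 to 1530 and 2528. The folds over fed 0 h are therefore larger than those over the other fed times.

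Other members followed with smaller changes. Cdkn1a, the p21 inhibitor of cyclin-dependent kinases, gave 967, 791, 840.4 and 1174 on the fed arrays and 3899 and 3372 on the CR arrays, a rise of 3.89-fold (95% CI 2.86 to 5.29, adjusted p = 1.84e-05). Its second probe set rose too, by 1.32 log2 (adjusted p = 0.00471). Per1, a repressor in the circadian clock that is also a direct glucocorticoid target, gave 220.3, 306, 416 and 404 against 1586 and 1331, a rise of 4.45-fold (95% CI 3.01 to 6.58, adjusted p = 9.62e-05). The CR arrays of both genes lay apart from all fed arrays. The fed mean of Per1 was 337 at 0 h and 478 to 929 at 2, 4 and 12 h, against 1459 at CR 48 h. Ddit4, an inhibitor of the growth kinase mTORC1, gave 1224, 909, 845 and 932 against 3384 and 2725 (3.14-fold, 95% CI 2.47 to 3.99, adjusted p = 9.27e-06). Errfi1, a feedback inhibitor of the EGF receptor, gave 3028, 3279, 3293 and 3571 against 9144 and 7651 (2.54-fold, 95% CI 2.06 to 3.14, adjusted p = 1.84e-05). No fed array of either gene reached the lower CR array.

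Of the 35 genes on the glucocorticoid response list 30 were measured, and 18 of them rose and 1 fell, where 2.56% of all 5706 genes rose and 2.98% fell. The list's median log2 change was 0.94, against -0.01 over all genes, and it was 1.14 against number 1 and 0.85 against number 2. Against both numbers alone 16 members rose as well, where 1.44% of all genes did. The other members that rose were the sulfotransferase Sult1a1 (1.53 log2), Nfkbia, the inhibitor that holds NF-kB in the cytoplasm (1.27), the transcription factors Cebpd (1.16) and Cebpb (0.90), the metal-binding metallothioneins Mt1 (1.02) and Mt2 (0.81), Zfp36, which speeds the decay of cytokine mRNAs (0.98), the repressor Bcl6 (0.87), the phosphatase Dusp1 (0.69), and Pdk4 and Angptl4, which are described with the fat genes. Bcl6, at an adjusted p of 0.0498 over all fed arrays, did not pass against number 2 alone (adjusted p = 0.261). Rgs2, a brake on G protein signalling, was the member that fell, by 1.13 log2 (adjusted p = 0.0173), from 1934, 1679.5, 902 and 989 to 473 and 749. Against number 2 alone its change was -0.67 (adjusted p = 0.0659). Members that did not pass included Sgk1, a kinase that acts on sodium transport (-0.12, adjusted p = 0.753), Hsd11b1, which regenerates active glucocorticoid (-0.44), and Klf9 (0.86, adjusted p = 0.0967). A second and dimmer probe set of Klf9 was called, at 1.45 (adjusted p = 0.00853). The receptor gene itself, Nr3c1, and Tsc22d3 were not measured. With the actin ratio as a covariate 13 members rose and none fell, and with the a and b arrays treated as correlated 10 rose; without CR 1a 11 rose and without CR 1b 14.

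**Figure D2:**
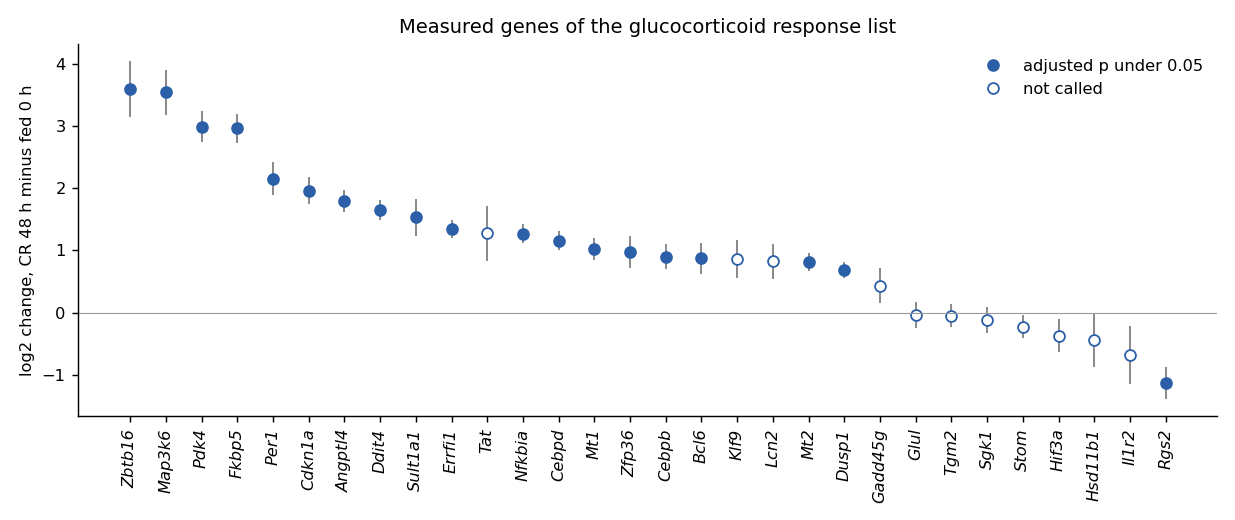
The log2 change from fed 0 h (4 arrays) to CR 48 h (2 arrays) for each of the 30 measured genes of the glucocorticoid response list, as points with bars of 1 standard error; filled points passed the test. The 18 filled points above 0 run from Zbtb16 at 3.60 to Dusp1 at 0.69, and Rgs2 at -1.13 is the filled point below 0.

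The promoters of the genes that rose were searched for the spaced palindrome that the glucocorticoid receptor prefers, in a loose form: GNACA, any 3 bases, then TGTNC, which reads the same on both strands. It was found in the 250 bases before the start of 127 of 32851 mouse genes in RefSeq (0.387%) and of 16 of 4583 measured genes with a promoter entry (0.349%). Among the 132 genes that rose and had an entry it was in 5 (Map3k6, Mt1, Slc10a6, Tinagl1 and Txnip; 3.79%), and among the 151 that fell in 0. Of 26 members of the glucocorticoid list with an entry 3 carried it, Map3k6, Mt1 and Sgk1. A match is a description of the letters, and binding was not measured. Slc10a6, which encodes a transporter of steroid sulfates, was chosen after its values were seen: it gave 1092, 945, 1035 and 1171 on the fed arrays and 3626 and 3411 under CR, a rise of 3.33-fold (95% CI 2.72 to 4.07, adjusted p = 7.14e-07), with no overlap. The 250 bases before the start of Map3k6 (GRCm38.p6, chr4:133240568-133240817, plus strand), Slc10a6 (chr5:103629404-103629653, minus strand) and Mt1 (chr8:94178839-94179088, plus strand) follow, 5′ to 3′ along each gene's strand, to show where the match lies; capitals mark it, beginning 181, 163 and 94 bases before the start.
Map3k6: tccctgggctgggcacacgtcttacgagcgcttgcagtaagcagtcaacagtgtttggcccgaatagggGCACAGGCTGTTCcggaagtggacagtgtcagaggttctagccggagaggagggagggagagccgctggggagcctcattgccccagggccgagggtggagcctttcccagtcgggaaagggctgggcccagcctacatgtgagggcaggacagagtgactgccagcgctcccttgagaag
Slc10a6: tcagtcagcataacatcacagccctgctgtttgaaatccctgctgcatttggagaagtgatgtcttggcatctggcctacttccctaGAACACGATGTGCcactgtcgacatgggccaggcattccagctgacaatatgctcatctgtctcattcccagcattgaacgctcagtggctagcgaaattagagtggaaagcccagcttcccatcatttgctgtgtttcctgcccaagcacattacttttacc
Mt1: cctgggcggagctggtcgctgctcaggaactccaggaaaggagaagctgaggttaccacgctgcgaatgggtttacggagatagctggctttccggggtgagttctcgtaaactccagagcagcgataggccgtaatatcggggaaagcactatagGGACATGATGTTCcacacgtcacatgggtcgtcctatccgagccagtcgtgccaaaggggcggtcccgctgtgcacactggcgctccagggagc

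Some genes for releasing and burning fat rose, while most of the oxidation machinery was not called. Pdk4, which inactivates pyruvate dehydrogenase and so spares glucose, gave 178, 252, 352 and 379 on the fed arrays and 2424 and 2016 on the CR arrays. Both CR arrays were above all fed arrays, and the rise was 7.95-fold (95% CI 5.56 to 11.4, adjusted p = 7.14e-07). Angptl4, a secreted inhibitor of lipoprotein lipase, gave 588, 653, 440.0 and 463 against 1820.0 and 1851, a rise of 3.47-fold (95% CI 2.67 to 4.51, adjusted p = 9.27e-06). The other 2 probe sets of Angptl4 gave 0.97 (adjusted p = 0.0166) and -0.94 (adjusted p = 0.336), so they differed in direction. Acot1, which frees fatty acids from coenzyme A, gave 1088, 787, 1005 and 1154 against 3361 and 2613 (2.97-fold, 95% CI 2.32 to 3.80, adjusted p = 1.84e-05). Lpl, lipoprotein lipase itself, gave 969.9, 1171, 1188 and 1369 against 3282 and 2899 (2.65-fold, 95% CI 2.09 to 3.35, adjusted p = 3.92e-05). Neither gene's fed arrays reached its CR arrays.

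Cpt1a, which admits fatty acids to mitochondria, rose over all 4 fed arrays (2.11-fold, 95% CI 1.42 to 3.12, adjusted p = 0.0279). Its fed arrays gave 2335 and 1913 for number 1 but 4527 and 4804 for number 2, against 7350.1 and 5960.5 under CR, and it did not pass against number 2 alone (log2 0.51, adjusted p = 0.0651). Of 23 measured genes of fatty acid oxidation and PPAR targets these 5 rose, none fell, and 18 were not called, among them the acyl-CoA dehydrogenases Acadm (0.02) and Acadl (-0.05) and the receptor Ppara (0.04). The list's median was 0.11, and 2.56% of all genes rose. Plin2, which coats lipid droplets, gave 3046, 2577, 1226 and 1378 against 4349 and 3023, and its overall change of 0.93 was not called (adjusted p = 0.0723).

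The triglyceride lipase Pnpla2 rose from 3829, 3949, 4125 and 4464 to 8417 and 8952 (2.12-fold, 95% CI 1.70 to 2.65, adjusted p = 2.96e-04), without overlap. Lipe, the hormone-sensitive lipase, rose by 1.44 log2 (adjusted p = 0.0320) over all fed arrays but not against number 2 alone (adjusted p = 0.163). Some genes of fat storage fell. Thrsp, a promoter of fatty acid synthesis that insulin and feeding induce, gave 1637 and 1369.6 on fed number 1, 498 and 495 on fed number 2 and 217 and 358 under CR. The CR arrays were lowest and number 1 highest, and the fall was 3.09-fold (95% CI 1.71 to 5.59, adjusted p = 0.0276), though it was -0.83 log2 against number 2 (adjusted p = 0.119). Scd1, the desaturase that makes monounsaturated fatty acids, fell 1.49-fold (95% CI 1.21 to 1.85, adjusted p = 0.0294), from 28786, 20972, 24607 and 27884 to 17542 and 16451. Its second probe set gave -0.74 and was not called (adjusted p = 0.0934).

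In the adipocyte list of 14 measured genes 3 rose (Lpl, Lipe and Pnpla2) and 5 fell (Scd1, Thrsp, Car3, Adipoq and Rbp4), with a median of -0.02. Of all genes 2.56% rose and 2.98% fell. With the a and b arrays treated as correlated 1 of the 14 rose and 0 fell, and with the actin ratio as a covariate 2 rose and 0 fell. Car3, the carbonic anhydrase of fat and muscle, gave 1652, 2049, 1647 and 2203 against 736 and 586 and fell 2.85-fold (95% CI 1.94 to 4.18, adjusted p = 0.00263), and it was called against each number. Adipoq, which encodes the fat hormone adiponectin, fell by 1.10 log2 (adjusted p = 0.0420), but against number 2 its change did not pass (adjusted p = 0.229). Without CR 1b 2 adipocyte genes rose and 0 fell, and without CR 1a 2 rose and 1 fell. The summed signal of the list was 44782 and 46851 on the CR arrays and 45630.1 to 54444 on the fed arrays. In whole tissue a smaller number of cells of a type and less RNA per cell cannot be told apart. Among 12 fatty acid synthesis genes 1 rose (Elovl5, an elongase, 0.61) and 2 fell, and Fasn, the synthase itself, stood at -0.04 (adjusted p = 0.908). None of 14 cholesterol synthesis genes was called, with a median of -0.39; it was -0.63 against number 1 and -0.12 against number 2.

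**Figure D3:**
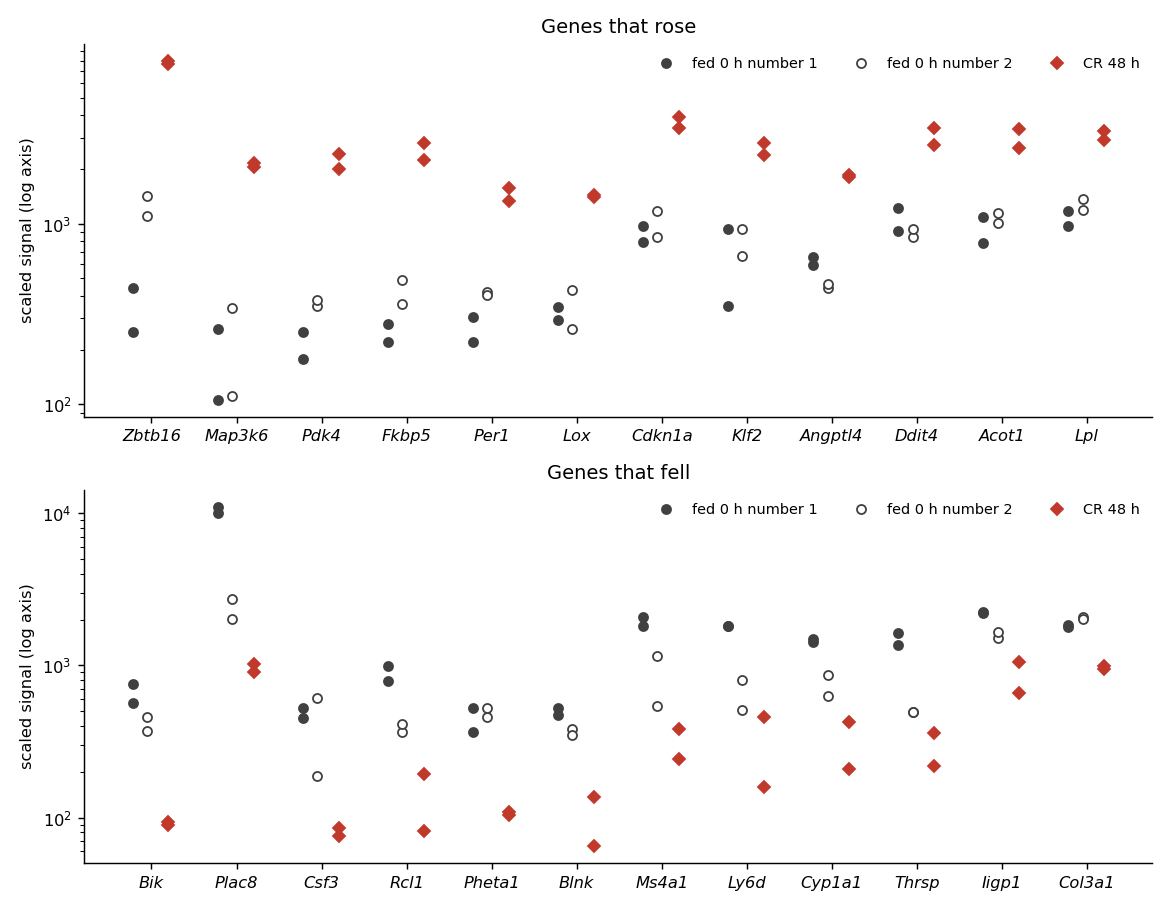
Scaled signal on each array (log axis) for 12 genes that rose and 12 that fell, with fed 0 h number 1 as filled circles, number 2 as open circles and CR 48 h as diamonds; values are shown before the floor of 80.4 was applied. In every gene shown both diamonds lie beyond all 4 circles, and for Plac8, Thrsp, Ms4a1 and Ly6d the filled circles stand highest.

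A few regulators of growth arrest and nutrient sensing were called higher. Of 31 measured genes of FOXO, atrophy and autophagy 5 rose and none fell, with a median of -0.01: Cdkn1a, Ddit4, Foxo3, Bcl6 and Txnip. Of all genes 2.56% rose. With the a and b arrays treated as correlated, with the actin ratio as a covariate, against fed 2, 4 and 12 h, or without CR 1a, 2 rose in each case. Foxo3, a FOXO transcription factor, gave 1022 and 885 on fed number 1, 2164 and 2316 on number 2 and 4456 and 3252 under CR. The CR arrays were the highest, and the rise was 2.61-fold (95% CI 1.69 to 4.03, adjusted p = 0.0121), or 0.77 log2 against number 2 (adjusted p = 0.0186). Txnip, which limits glucose uptake and binds thioredoxin, rose 1.37-fold (95% CI 1.15 to 1.65, adjusted p = 0.0392), but its second probe set gave -0.50 (adjusted p = 0.332). The fed mean of Txnip was 5109 at 0 h but 7065 and 6863 at 2 and 4 h and 5170 at 12 h, against 7014 at CR 48 h. The autophagosome genes Map1lc3b (-0.10), Gabarapl1 (0.12) and Sqstm1 (-0.01) were not called. Igfbp6, which binds insulin-like growth factor 2, was the 1 gene called of 15 in insulin and IGF signalling (log2 0.58, SE 0.14, adjusted p = 0.0263).

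Among 17 clock genes Per1 and Cry1, another repressor of the clock, rose, where 2.56% of all genes rose. Cry1 gave 1177, 1155, 879 and 955 on the fed arrays and 1873 and 1469 under CR, a rise of 1.61-fold (95% CI 1.22 to 2.11, adjusted p = 0.0399). Its fed mean was 1041 at 0 h, 736 and 830 at 2 and 4 h and 2093 at 12 h, against 1671 at CR 48 h. Per2 (0.81, adjusted p = 0.184) and Dbp (-0.99, adjusted p = 0.0818), a clock output gene, were not called. The clock list's median was 0.51 against number 1 and -0.17 against number 2.

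Endothelial and immediate early genes included the Krüppel-like factors. Klf2, which blood flow induces in endothelium, gave 941, 349, 664 and 938 in fed lung and 2806 and 2402 under CR, and rose 3.86-fold (95% CI 2.49 to 5.99, adjusted p = 9.17e-04). Klf4, its relative, gave 1997, 1806, 2824 and 4140.1 and 7949 and 7396, a rise of 3.01-fold (95% CI 2.06 to 4.39, adjusted p = 0.00154). The CR arrays of both stood above all fed arrays. Lyve1, the hyaluronan receptor of lymphatic endothelium, rose 2.62-fold (95% CI 2.00 to 3.44, adjusted p = 2.16e-04), from 888, 862, 764 and 1166 to 2559.8 and 2216. Ramp2, a subunit of the adrenomedullin receptor, rose 1.80-fold (95% CI 1.38 to 2.37, adjusted p = 0.0131), and Thbd, the anticoagulant thrombomodulin, by 0.72 log2 (adjusted p = 0.0214), though its second probe set gave 0.09. Against the mean of fed 2, 4 and 12 h Klf2 and Klf4 passed, but Lyve1 (adjusted p = 0.254) and Ramp2 (0.125) did not.

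In all, 5 of 36 endothelial genes rose and 1 fell, with a median of 0.33, and the 6 were called against each number. Of all genes 2.56% rose and 2.98% fell. With the a and b arrays treated as correlated none of the 36 was called. Against the mean of fed 2, 4 and 12 h 2 rose and 1 fell, with a median of 0.03. Without CR 1a, as without CR 1b, 3 endothelial genes rose, and without fed 2b 15 did. The list's summed signal was 150045 and 171145 on the CR arrays and 112793 to 149006 on the fed arrays. The gene that fell was Gja4, an arterial gap junction protein, from 2409, 3235, 1621 and 1773 to 637 and 1224 (2.46-fold, 95% CI 1.66 to 3.66, adjusted p = 0.0102). Pecam1 (-0.40) and Cdh5 (0.59), which mark endothelium at large, were not called. Of 22 immediate early genes 5 rose (Klf2, Klf4, Ccn2, Zfp36 and Dusp1), with a median of 0.27. Ccn2, a matrix-associated growth factor, rose from a fed range of 1352 to 1447 to 2874 and 2612 (1.97-fold, 95% CI 1.49 to 2.61, adjusted p = 0.00626). It did not pass against the mean of fed 2, 4 and 12 h (adjusted p = 0.275). Fos (0.54), Egr1 (-0.10) and Junb (-0.07) were not called. Zfp36 did not pass against number 2 alone (adjusted p = 0.156).

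The matrix of the lung changed in both directions. Lox, the enzyme that cross-links elastin and collagen, gave 295, 345, 260.1 and 432 on the fed arrays and 1443 and 1399 on the CR arrays. The CR arrays stood clear of every fed array, and the rise was 4.35-fold (95% CI 3.04 to 6.22, adjusted p = 3.99e-05); a dimmer second probe set gave 0.93 and was not called (adjusted p = 0.283). Mfap2, an elastic microfibril protein, rose 1.73-fold (95% CI 1.39 to 2.16, adjusted p = 0.00501). Against the mean of fed 2, 4 and 12 h Lox passed and Mfap2 did not (adjusted p = 0.186). Eln, elastin itself, rose 1.79-fold (95% CI 1.35 to 2.38, adjusted p = 0.0186), from 5911, 5081, 8544 and 8119 to 12087 and 12123, and by 0.54 log2 against number 2, which did not pass (adjusted p = 0.0712). A second, dimmer probe set of Eln gave 1.11 and was not called (adjusted p = 0.119).

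Mgp, the matrix protein that holds back calcification, fell 2.21-fold (95% CI 1.62 to 3.02, adjusted p = 0.00443), from 24067, 22753, 14044 and 15734 to 7726 and 9183, and Mfap5 fell 1.93-fold (95% CI 1.42 to 2.63, adjusted p = 0.0157). Mfap5 did not pass against number 2 alone (adjusted p = 0.0613), and its second, dimmer probe set was not called (-0.66, adjusted p = 0.231). The matrix list thus had 3 rises and 2 falls among 24 measured genes, with a median of 0.12, and without CR 1a, as without CR 1b, 1 of its genes rose. With the a and b arrays treated as correlated 1 rose and 0 fell. Against fed 2, 4 and 12 h 2 rose and 4 fell, and the median was -0.07. Over all genes 2.56% rose and 2.98% fell against fed 0 h. Col3a1, the chain of type III collagen, fell 1.99-fold (95% CI 1.64 to 2.40, adjusted p = 1.92e-04): the fed arrays gave 1793, 1838, 2064 and 2022 and the CR arrays 948 and 992, with no overlap. A second of its probe sets fell too (-0.92, adjusted p = 0.0296), and a dim one gave -0.64 (adjusted p = 0.336). Serpinh1, the collagen chaperone, fell 1.56-fold (95% CI 1.20 to 2.02, adjusted p = 0.0420), without a call against number 2 (adjusted p = 0.127). These 2 were the calls among 22 collagen genes, while Col1a1 (0.62) and Col4a1 (0.65) were not called. The protease inhibitor Timp3 rose 1.69-fold (95% CI 1.30 to 2.20, adjusted p = 0.0226) and was the 1 call among 28 proteases and inhibitors, but it did not pass against number 2 alone (adjusted p = 0.0835). The fed mean of Timp3 was 6325 at 0 h, 7110 and 7119 at 2 and 4 h and 10123 at 12 h, against 10545 at CR 48 h.

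The alveolar epithelium was represented by few calls, where 2.56% of all genes rose and 2.98% fell. Of 18 type II cell genes Slc34a2, the phosphate transporter of these cells, rose 1.63-fold (95% CI 1.30 to 2.03, adjusted p = 0.0122) and Scd1 fell, and none of 9 type I cell genes was called. The fed mean of Slc34a2 was 11832.5 at 0 h and 15598 to 17627 at 2, 4 and 12 h, against 19125 at CR 48 h. Of 32 genes of retinoid and alveologenesis signalling Dll1, a ligand of Notch, rose and Rbp4, which carries retinol in blood, fell. Dll1 gave 81.1 and 85.3 on fed number 1, 568 and 583 on number 2 and 1777 and 1000.2 under CR. The rise of 6.09-fold (95% CI 2.34 to 15.9, adjusted p = 0.0282) was therefore largest against number 1, and the log2 change against number 2 was 1.21 (adjusted p = 0.0932). Rbp4 fell 1.58-fold (95% CI 1.23 to 2.03, adjusted p = 0.0319) and did not pass against number 2 (adjusted p = 0.129). Among 32 apoptosis genes Bcl2l1, which encodes the survival protein Bcl-xL, rose from 3254, 3795, 2789.9 and 3261 to 7235 and 7573 (2.27-fold, 95% CI 1.78 to 2.91, adjusted p = 3.93e-04). Bik, a killer protein of the same family, gave 569, 753, 459.6 and 372 in fed lung and 93.3 and 88.9 under CR. The fall was 5.71-fold (95% CI 3.47 to 9.39, adjusted p = 2.45e-04), and it was called against each number. Gzma, on that list too, is described with the lymphocyte genes.

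B cell and natural killer cell genes had the lowest medians among the cell type lists. Plac8, expressed in several kinds of white blood cell, gave 10066 and 10951 on fed number 1, 2033 and 2745 on number 2 and 902 and 1026 under CR. The CR arrays were the lowest of the 6, and fed number 1 was well above number 2. The fall was 5.18-fold (95% CI 2.60 to 10.3, adjusted p = 0.00694), or -3.45 log2 against number 1 and -1.30 against number 2, each called. Ms4a1, the B cell antigen CD20, gave 2072, 1810.2, 541 and 1149.7 on the fed arrays and 242 and 381 under CR, a fall of 4.07-fold (95% CI 2.26 to 7.32, adjusted p = 0.00694). Its brighter probe set gave -1.45 with an adjusted p of 0.0559, just outside the call.

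Ly6d, an early B cell surface marker, fell 4.02-fold (95% CI 2.20 to 7.33, adjusted p = 0.00902), from 1822, 1808, 513 and 807 to 159 and 456, and Blnk, an adaptor below the B cell receptor, fell at least 4.07-fold (adjusted p = 7.59e-04), from 524, 471, 383 and 349 to 136 and 65.2. One CR array of Blnk was under the floor of 80.4, the lowest value used, so the fold is a lower bound. A second probe set of Blnk gave -0.90 and was not called (adjusted p = 0.0866). Of 15 measured B cell genes, taking the brightest probe set of each, Ly6d and Blnk were called lower and none higher, and 14 had a negative change. Over all genes 2.98% were called lower and the median was -0.01. The list's median was -1.01, against -1.39 for number 1 and -0.60 for number 2. The receptor chains Cd79a (-1.02, adjusted p = 0.117) and Cd79b (-1.48, adjusted p = 0.0576) were not called. The summed signal of the list's genes was 5898 and 6999 on the CR arrays, 18635 and 19562 on fed number 1, and 8676 and 11606 on number 2. Against the mean of fed 2, 4 and 12 h, a control with other clock times in which 2.56% of genes fell, 8 of the 15 fell. No B cell gene was called with the a and b arrays treated as correlated, and 1 was with the actin ratio as a covariate.

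Gzma, the granzyme of natural killer and cytotoxic T cells, gave 802 and 839 on number 1, 221 and 180.4 on number 2 and 89.0 and 134 under CR; it fell 3.71-fold (95% CI 1.80 to 7.65, adjusted p = 0.0333) over all fed arrays but did not pass against number 2 (adjusted p = 0.168). It was the 1 call among 6 genes of that cell type, and none of 10 T cell genes was called, with a median of -0.37. Of 30 macrophage and monocyte genes 4 fell, Plac8 among them, and 1, Lpl, rose, with a median of -0.52, where 2.98% of all genes fell. With the a and b arrays treated as correlated, and with the actin ratio as a covariate, none of the 30 fell and 1 rose. Without CR 1b none of these genes was called lower, without CR 1a 1 was, and without fed 2a 13 were. Ccr2, the chemokine receptor of inflammatory monocytes, fell 2.16-fold (95% CI 1.54 to 3.02, adjusted p = 0.00954), from 962, 977, 559 and 577 to 376 and 314. Lgals3, or galectin-3, fell 1.90-fold (95% CI 1.41 to 2.56, adjusted p = 0.0135), and Itgax, or CD11c, fell 1.77-fold (95% CI 1.36 to 2.31, adjusted p = 0.0149), the latter without a call against number 2 (adjusted p = 0.0623). The median of the macrophage list was -0.91 against number 1 and -0.01 against number 2. In the MHC class II list of 12 genes H2-Eb1 (-0.82) and H2-DMb1 (-1.14) fell and neither was called against number 2. That list's median was -0.73, with -1.06 against number 1 and -0.33 against number 2.

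Some interferon-induced genes fell. Iigp1, a GTPase that attacks the vacuoles of intracellular parasites, gave 2253, 2209, 1522 and 1662 on the fed arrays and 654 and 1045 under CR, a fall of 2.28-fold (95% CI 1.71 to 3.03, adjusted p = 0.00164); its second probe set fell by 1.88 log2 (adjusted p = 0.00335). The guanylate-binding proteins Gbp2 and Gbp3 fell as well. Gbp2 gave 1642, 1569.8, 1615 and 1904 and 1033 and 1028 (1.63-fold, 95% CI 1.34 to 1.98, adjusted p = 0.00460), and Gbp3 gave 1094, 846, 1190.1 and 1608 and 555 and 674 (1.89-fold, 95% CI 1.40 to 2.54, adjusted p = 0.0157). No CR array of these genes reached a fed array. Ifi47, another GTPase of the family, fell 2.41-fold (95% CI 1.52 to 3.84, adjusted p = 0.0279) but did not pass against number 2 (adjusted p = 0.123).

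Of 24 measured interferon response genes these 4 fell and none rose, and 12 had both CR arrays below all fed arrays. Over all genes 2.98% fell and 13.8% lay below all fed arrays. The list's median was -0.40, with -0.50 against number 1 and -0.39 against number 2. Isg15, a ubiquitin-like protein, stood at -0.78 (adjusted p = 0.0715) and the immunoproteasome subunit Psmb9 at -1.07 (adjusted p = 0.0866), neither called. The summed signal of the list, which its brightest genes dominate, overlapped between the groups, at 63257 and 71438 on the CR arrays and 62649 to 72484 on the fed arrays. No member was called with the actin ratio as a covariate, without CR 1a or with the a and b arrays treated as correlated. The response element that interferon-activated factors bind, searched as GAAA, any 2 bases, then GAAA on both strands with overlapping matches allowed, was in the 250 bases before the start of 2.98% of 32851 genes. It was present in 8 of the 20 list members with an entry (40.0%), among them Gbp2 and Gbp3 but not Ifi47. The other carriers on the list were not called. The list was made of interferon-induced genes, so its share does not bear on CR. Among measured genes with an entry 143 of 4583 (3.12%) carried the element. It was in 3 of the 132 that rose (2.27%) and 7 of the 151 that fell (4.64%). The windows of Gbp2 (GRCm38.p6, chr3:142620413-142620662, plus strand) and Gbp3 (chr3:142559794-142560043, plus strand) are shown with the matches in capitals, which read as the reverse complement of the searched letters; the first match begins 59 bases before the start of Gbp2 and 45 before that of Gbp3, where 2 matches overlap.
Gbp2: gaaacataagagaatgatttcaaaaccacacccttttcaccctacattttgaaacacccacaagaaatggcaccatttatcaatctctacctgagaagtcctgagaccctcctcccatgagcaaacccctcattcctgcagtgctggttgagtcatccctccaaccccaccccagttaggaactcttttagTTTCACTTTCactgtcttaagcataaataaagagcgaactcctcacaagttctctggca
Gbp3: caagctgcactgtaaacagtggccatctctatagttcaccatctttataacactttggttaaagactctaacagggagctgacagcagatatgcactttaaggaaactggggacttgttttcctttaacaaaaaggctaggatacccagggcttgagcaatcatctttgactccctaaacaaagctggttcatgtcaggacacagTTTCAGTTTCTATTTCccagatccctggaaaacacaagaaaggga

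**Figure D4:**
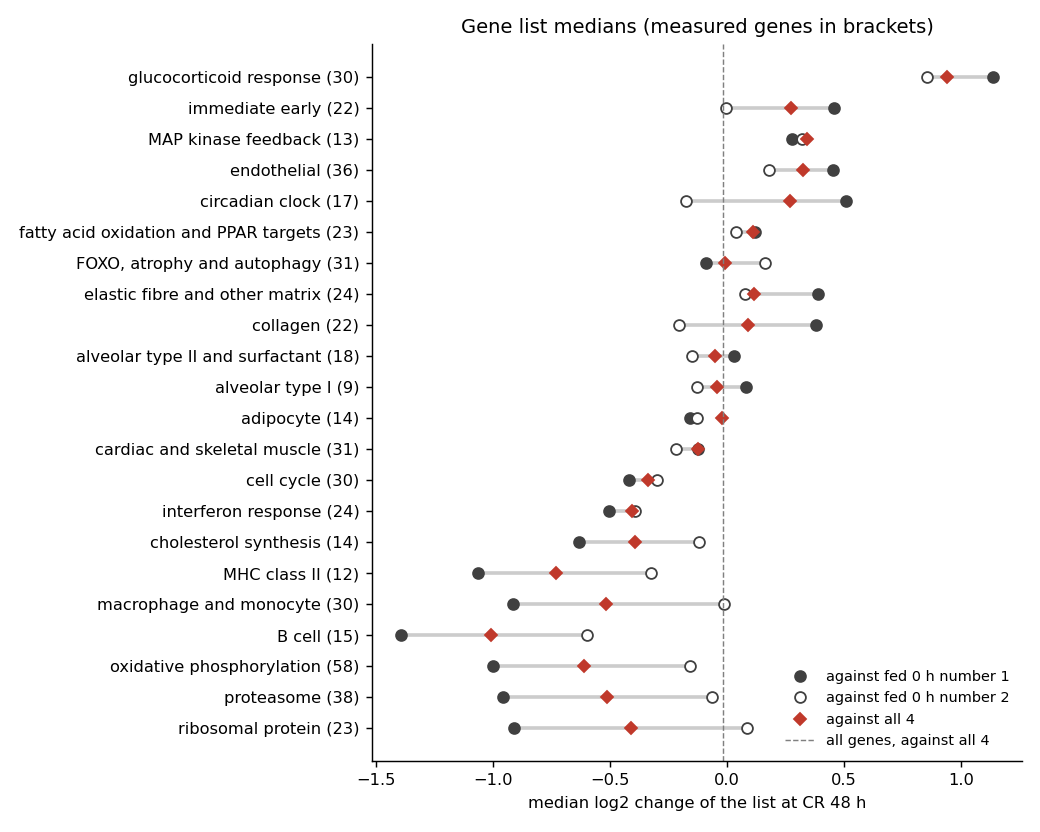
Median log2 change at CR 48 h of 22 gene lists, against fed 0 h number 1 (filled circles), number 2 (open circles) and all 4 fed arrays (diamonds), with the median of all genes as a dashed line. The glucocorticoid list lies at 0.85 to 1.14 whichever control is used, while ribosomal protein, proteasome and oxidative phosphorylation genes lie at -0.91, -0.96 and -0.997 against number 1 and at 0.09, -0.06 and -0.16 against number 2.

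Genes of housekeeping complexes were called lower against fed number 1 and seldom otherwise. Of 58 oxidative phosphorylation genes 2 fell over all fed arrays, Atp5c1 (-0.82) and Atp5e (-1.52), both subunits of ATP synthase, where 2.98% of all genes fell, and neither was called against number 2. A second probe set of Atp5c1 gave -0.55 and was not called (adjusted p = 0.244). No gene of the list was called with the a and b arrays treated as correlated or with the actin ratio as a covariate. Atp5e shows the pattern, with 6969 and 6729.9 on number 1, 2423 and 1662 on number 2 and 1531 and 1084 under CR. The list's median was -0.61 over all fed arrays, -0.997 against number 1 and -0.16 against number 2. Against number 1 alone 46 of the 58 fell, where 22.1% of all genes did, and against number 2 alone 0 did, where 1.51% of all genes did. Without fed 2a 26 fell and without fed 2b 25. The proteasome list had 2 falls among 38 genes, Psmb1 (-0.87) and Psmc2 (-0.58), neither called against number 2, with medians of -0.96 and -0.06 against numbers 1 and 2. A second probe set of Psmb1 gave -0.72 and was not called (adjusted p = 0.154). Of 23 ribosomal protein genes none was called, and the medians were -0.91 and 0.09. The sign of the ribosomal median thus differed between the controls.

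Few cell cycle genes were called. Of 30 measured, Ube2c, Cks2 and Ccnb2, which act in mitosis, fell and none rose, where 2.98% of all genes fell, and the median was -0.34. Of these only Ccnb2 was called against each number, while Ube2c (adjusted p = 0.0763) and Cks2 (0.197) did not pass against number 2. Ccnb2, or cyclin B2, gave 1010.1, 1199, 1019 and 1149 on the fed arrays and 694 and 706 under CR, a fall of 1.56-fold (95% CI 1.25 to 1.95, adjusted p = 0.0214), with no overlap and a call against each number. Ube2c gave 295, 315, 311 and 239 and 72.0 and 63.7; both CR arrays were under the floor, so it fell at least 3.59-fold (adjusted p = 0.0274).

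Muscle genes of the heart and of pulmonary veins, whose walls carry heart muscle in mice, included 4 that fell. Myl7, the atrial light chain of myosin, gave 10733, 10488, 9463 and 7411 against 4460.1 and 4157, a fall of 2.19-fold (95% CI 1.65 to 2.91, adjusted p = 0.00253). Myl4 (-0.75), Csrp3 (-1.52) and Tnni3 (-0.51) also fell, where 2.98% of all genes fell. A second probe set of Myl4 gave -0.22 and was not called (adjusted p = 0.464). In the list 27 of 31 genes were not called, and its median was -0.12. Of these 4 only Myl7 was called against each number. The summed signal of the list was 39773 and 41082 on the CR arrays, 48182 to 49674 on fed number 1, 47372 and 54675 on number 2, and 28337 to 44310 on the other late CR arrays. Against the mean of fed 2, 4 and 12 h none of the 31 fell, and Myl7 stood at -0.33 (adjusted p = 0.361).

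Enzymes that handle foreign compounds changed in both directions. Cyp2b10 rose 2.19-fold (95% CI 1.53 to 3.13, adjusted p = 0.0129) and Cyp4b1, a cytochrome P450 abundant in club cells, rose 1.46-fold (95% CI 1.22 to 1.75, adjusted p = 0.0174), each without overlap. Cyp1a1, which the aryl hydrocarbon receptor induces, fell 3.48-fold (log2 -1.80, SE 0.32, adjusted p = 0.00275), from 1480.2, 1435, 625 and 866 to 424 and 209.5. These were the 3 calls among 12 cytochrome P450 genes, where 2.56% of all genes rose and 2.98% fell. The glutathione transferases Mgst1 (1.47-fold, 95% CI 1.17 to 1.85, adjusted p = 0.0433) and Mgst3 (1.68-fold, 95% CI 1.28 to 2.21, adjusted p = 0.0279) fell among 31 antioxidant genes, where 2.98% of all genes fell, and neither was called against number 2 (adjusted p = 0.146 and 0.103).

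Several of the largest changes lay outside the groups above. Among the rises, Inpp5d, a phosphatase that restrains signalling in blood cells, rose 5.36-fold (95% CI 2.57 to 11.2, adjusted p = 0.00965), but its other probe set gave -0.77 (adjusted p = 0.220). H2-M10.1, a class I-like MHC gene, rose 5.44-fold (95% CI 2.44 to 12.1, adjusted p = 0.0164), while its other, brighter probe set gave 0.12 (adjusted p = 0.780). Tcf25 rose at least 5.62-fold (adjusted p = 0.0348), with all 4 fed arrays under the floor, and its other probe set gave -0.02. In these genes the change was thus seen by 1 probe set and not by the other. Sorbs3, a cell adhesion adaptor, rose at least 6.66-fold (adjusted p = 0.0239), with fed array 1b under the floor. Rnps1, an RNA processing factor, rose 3.51-fold (95% CI 1.78 to 6.92, adjusted p = 0.0311). Neither was called against number 2. The fed mean of Sorbs3 was 206 at 0 h and 443 to 810 at 2, 4 and 12 h, against 1072 at CR 48 h. For Rnps1 it was 510 at 0 h and 978 to 1462 at 2, 4 and 12 h, against 1401 at CR 48 h.

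Among the falls, Pheta1, an endosomal adaptor, gave 364, 522, 459 and 527 on the fed arrays and 109 and 104 on the CR arrays. It fell 4.35-fold (95% CI 3.06 to 6.21, adjusted p = 3.91e-05) and changed by -2.04 and -2.21 log2 against numbers 1 and 2. Rcl1, which acts in ribosome assembly, gave 785, 986, 368 and 409 and 194 and 82.0 (4.63-fold, 95% CI 2.68 to 7.99, adjusted p = 0.00209). Csf3, the growth factor of granulocytes, fell at least 4.92-fold (adjusted p = 0.00584), with 1 CR array under the floor. Each of these had both CR arrays below all fed arrays. Grik5, a glutamate receptor subunit, fell 5.17-fold (95% CI 2.80 to 9.56, adjusted p = 0.00318), Ptpn18, a tyrosine phosphatase, fell 4.49-fold (95% CI 2.78 to 7.27, adjusted p = 7.75e-04), and Ten1, a telomere-binding protein, fell 3.68-fold (95% CI 2.52 to 5.37, adjusted p = 2.78e-04); all were called against each number. Kctd9 fell at least 3.69-fold (adjusted p = 9.56e-04) and Evi2a at least 3.92-fold (adjusted p = 0.0276), with both CR arrays of each under the floor. Evi2a did not pass against number 2 alone (adjusted p = 0.148), and its other, brighter probe set was not called (-1.74, adjusted p = 0.0520). Ift46, a ciliary transport protein, fell 5.06-fold (95% CI 2.13 to 12.0, adjusted p = 0.0296), but its other probe set gave -0.31 (adjusted p = 0.532).

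A small set of changes held under the readings of the controls given next, though not under every fit. The fit of only the 6 arrays called 0 probe sets. Called over all 4 fed arrays, against each number, against the mean of fed 2, 4 and 12 h, with the a and b arrays treated as correlated and with the actin ratio as a covariate were 19 probe sets, 18 of them higher. Those that rose included Fkbp5, Slc10a6, Pdk4, Ddit4, Angptl4, Map3k6, Errfi1, Cdkn1a, Acot1, Lpl, Lox, Nfkbia, Per1, Zbtb16 and Selenbp1, and the 1 that fell was Pheta1. Against the mean of fed 2, 4 and 12 h 1.29% of probe sets rose and 2.61% fell. Selenbp1, a selenium-binding protein, was chosen after its values were seen. It gave 5512, 6195, 8482 and 8138 on the fed arrays and 16995 and 14601 under CR, a rise of 2.26-fold (95% CI 1.79 to 2.86, adjusted p = 2.63e-04). With a and b averaged to 1 sample, 6 probe sets passed, those of Fkbp5, Pdk4, Map3k6, Zbtb16, Sorbs3 and Dll1, of which the last 2 were not called against number 2 with all arrays.

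Few probe sets separated 48 h from the neighbouring times of CR. Against the mean of CR 24, 72 and 96 h, 1 probe set (0.0134%) was higher and 17 (0.228%) were lower, and against CR 24 h alone 0 were higher and 1 was lower, with 447 at an unadjusted p under 0.05. Against CR 72 and 96 h 7 (0.0941%) were higher and 68 (0.914%) lower. The arrays of these times also differed in range. The highest deposited signal was 87355 and 75232 at 48 h, 90497 and 74440.5 at 24 h, and 32154 to 41374 at 72 and 96 h. The share of probe sets at the floor was 1.42% and 1.16% at 48 h and 0.578% to 0.793% at 72 and 96 h. What this range difference adds to the calls was not tested. No glucocorticoid response gene was called against the other late times, and that list's median difference was -0.04. The mean signal of Pdk4 was 1528 at 24 h and 2219.9 at 48 h, and then 2204 and 2207. Fkbp5 went from 1795 at 24 h through 2528 at 48 h to 3990.0 and 4740.3, and its difference at 48 h from the other times was -0.36 log2 (adjusted p = 0.664). All late times share the 4 fed arrays as their control.

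The genes lower at 48 h than at the other late times were Pheta1, Rcl1, Cyp1a1, Bik and Gpr137b, by the rule for the largest such falls. Pheta1 stood at 312 and 505 on the CR 24 h arrays and at 109 and 104 on the 48 h arrays, then at 552 and 501 (72 h) and 568 and 610 (96 h). The 48 h arrays were the lowest of the 8, and the difference was -2.23 log2 (adjusted p = 8.44e-05); with the actin ratio as a covariate it did not pass (adjusted p = 0.0551). Bik stood at 523 and 247, at 93.3 and 88.9, at 317 and 296 and at 429 and 357 over the same times (-1.95, adjusted p = 0.0101). Rcl1 was at 245.3 and 244.7 at 24 h and at 194 and 82.0 at 48 h, and between 663 and 903 at 72 and 96 h (-2.02, adjusted p = 0.0180). Without CR 48 h 1b the difference of Rcl1 did not pass (adjusted p = 0.386), nor without CR 72 h 1a (0.0551), and that of Bik did not pass when either 48 h array was left out (adjusted p = 0.0925 without 1a, 0.124 without 1b).

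Cyp1a1 was high at 72 h alone, at 6069 and 3480, against 589 and 663 at 24 h, 424 and 209.5 at 48 h and 486 and 592 at 96 h (-1.95, adjusted p = 0.00469). The difference of Cyp1a1 did not pass without CR 48 h 1b (adjusted p = 0.182). Gpr137b, a lysosomal membrane protein, was at 271 and 264 at 24 h, 100.3 and 121 at 48 h and 466 to 601 later (-1.93, adjusted p = 0.0479). Against fed 0 h it was not called (-1.13, adjusted p = 0.111). The difference of Gpr137b did not pass when any 1 of the 8 late arrays was left out (adjusted p = 0.0872 to 0.346), while that of Pheta1 passed each time. Leaving out any 1 of the 8 late arrays left 7 to 13 probe sets lower and 0 higher, and with the actin ratio as a covariate 0 were called, with 325 at an unadjusted p under 0.05.

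**Figure D5:**
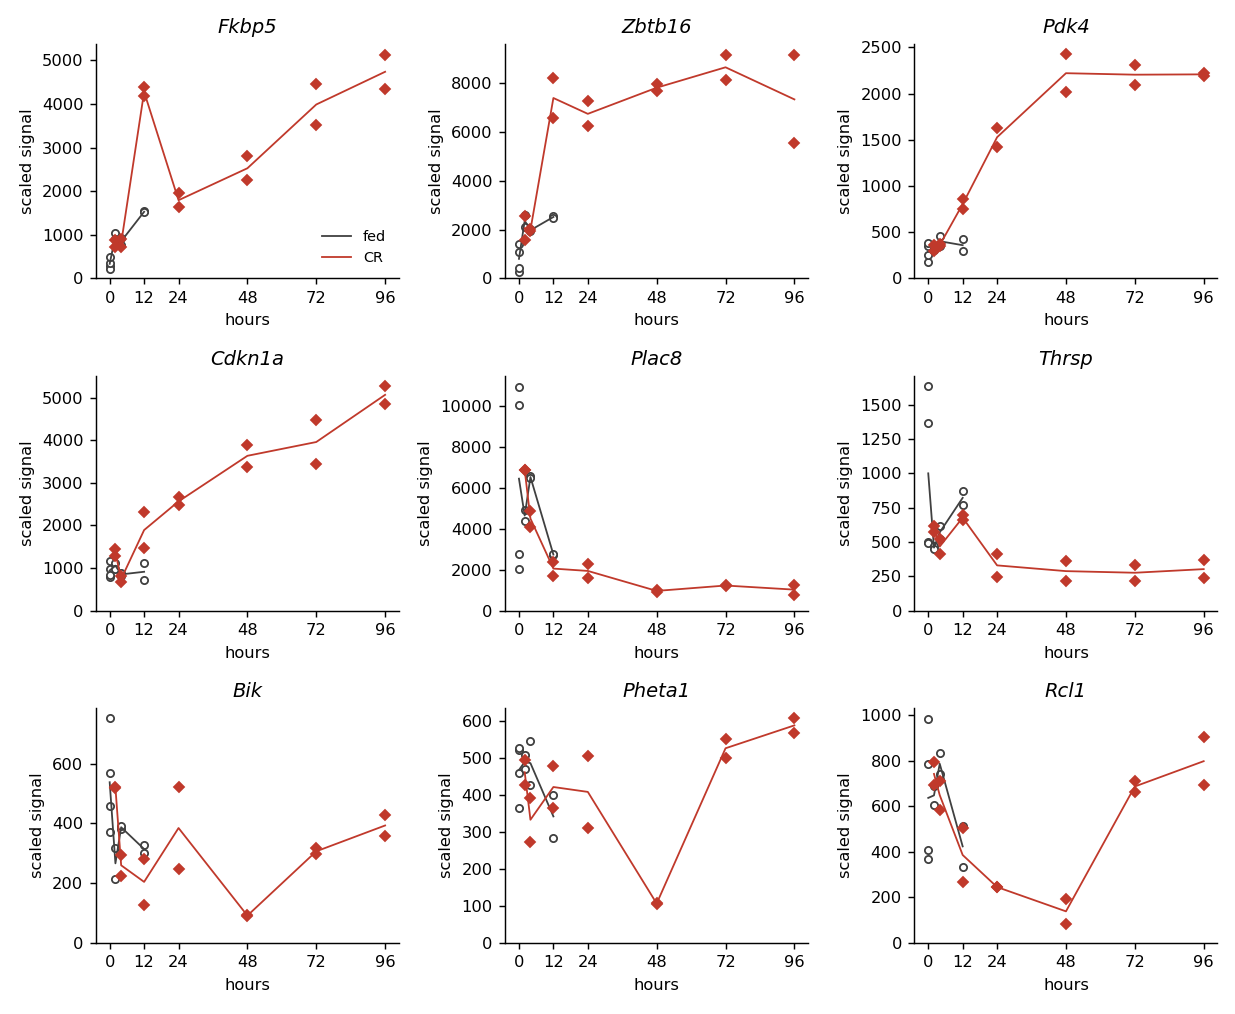
Scaled signal of 9 genes by hour, with each array as a symbol (fed open, CR filled) and lines through the group means. Fkbp5, Zbtb16, Pdk4 and Cdkn1a stay above the fed arrays from 12 or 24 h on, Plac8 and Thrsp stay low, and the means of Bik, Pheta1 and Rcl1 are lowest at 48 h.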

How the data were processed

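The deposited values are linear probe set intensity, scaled per array by the authors: leaving out the lowest and highest 2% of probe sets, the mean was 800.4 to 800.5 on every array. The software behind this signal is not stated in the labels, and no probe-level data were used. Of 12488 probe sets 66 were controls. Of the other 12422, 10833 had 1 gene symbol, 396 several and 1193 none in the platform annotation, which can be old. Each of 24 MG-U74Av2 arrays was scaled to a common median, values under 80.4 (the 25th percentile of the signal) were raised to it, and log2 values were tested with limma 3.58.1 in R 4.3.3 (lmFit and eBayes with intensity trend, 11 groups, 13 residual degrees of freedom, two-sided, Benjamini-Hochberg adjustment over 7440 probe sets). A second fit split fed 0 h by number. A change was called at an adjusted p under 0.05. Folds are ratios of means of log2 values, with 95% confidence intervals, and folds at the floor are lower bounds. The scripts were tested on simulated data. The number of arrays limits the precision.

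The members, the 46 gene lists and the tests were chosen with earlier results of these data known, so no list is independent evidence. A gene is represented in list counts by its brightest probe set. Named were, among called genes with both CR arrays beyond every fed array, the 15 that rose most and the 15 that fell most (by the probe set with the smallest p), up to 5 called members per list by smallest p, up to 5 per direction against the other late times, and the lung markers. All other genes with values, including members that were not called, were chosen after their values were seen. Promoters are 250 bases before the gene start in RefSeq (GRCm38.p6). The letters a and b were not used as pairs: their a minus b differences correlated at r = 0.04 and 0.07 between CR 48 h and fed numbers 1 and 2. Alternatives changed the scaling, floor, filter, variance model, control, arrays and RNA quality term. A further array, of another platform, whose labels name different treatments was left out. One gene of the strictest set is not reported here.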

Additional observations from a re-analysis of the deposited data

Results flagged for a closer look

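On 2 genes 1 fed 0 h array stood apart from the other 3, with a gap to its nearest neighbour of more than Dixon's 95% critical value of 0.829 of the group's range. Fed array 2a was low for Dusp1, with a gap of 0.850 of the range, and fed array 1b was low for Grik5, with a gap of 0.872. Chance gives such a gap in about 1 in 20 groups, and the 90 called named genes, the lung markers and Gpr137b were looked at. Grik5 was called against each fed number, and Dusp1 was too.

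The named genes whose level at CR 48 h differed from the mean of CR 24, 72 and 96 h in the same limma fit were all lower at 48 h. The log2 differences from the other late times were -2.23 for Pheta1, -2.02 for Rcl1, -1.95 for Cyp1a1, -1.93 for Gpr137b, -1.95 for Bik, -1.44 for Blnk, -1.35 for Kctd9 and -1.03 for Lgals3. With the actin ratio as a covariate none of them passed, though the difference was then -2.21 for Rcl1 and -1.74 for Pheta1. The part of RNA quality in these differences was not tested.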

How the results depend on the processing

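Against fed 0 h, where 188 probe sets rose and 217 fell, the counts stayed within 1.5 times of these with quantile normalization (218 and 210), unscaled values (227 and 214), no floor (187 and 215), a stricter filter, no intensity trend (166 and 175), robust estimates and array weights. No filter gave 137 falls, with 12422 probe sets adjusted over. The counts were 37 and 16 from only the fed 0 h and late CR arrays, 0 and 0 from the 6 arrays alone, 18 and 1 with each a and b pair as a random block (correlation 0.56), 6 and 0 with a and b averaged (1 residual degree of freedom) and 47 and 24 with the actin ratio. With number 1 as control they were 1513 and 1629, with number 2 the falls were 113, and with fed 2, 4 and 12 h the rises were 96. Leaving out 1 array gave 41 to 506 rises and 47 to 733 falls. With the letter as a replicate block 170 rose and 178 fell, and 0 rose and 16 fell in the comparison below. Against the other late times, where 1 rose and 17 fell, no filter gave 25 and 34, array weights 54 falls, no trend 0 rises, only late and fed 0 h arrays 0 and 2, CR 24 h alone 0 and 1, CR 72 and 96 h 7 and 68, the actin ratio 0 and 0, and leaving out 1 array 0 rises and 7 to 13 falls. Tnni3 (0.11) and Mgst1 (0.0070) changed sign with fed 2, 4 and 12 h as control. The cause of these shifts was not tested, except that fewer arrays or more probe sets enter where stated. Of 90 called named genes 0 passed in all 25 settings run and 30 in at least 20. Signals near 80.4 limit the folds of dim genes.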
